A study of Mus musculus with 3 samples.

Results

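The mouse Cyp3a genes encode the subfamily 3a cytochrome P450 enzymes, and 9 of them were measured here, out of 35275 genes in the deposited expression table. They are Cyp3a11, Cyp3a13, Cyp3a16, Cyp3a25, Cyp3a41a, Cyp3a41b, Cyp3a44, Cyp3a57 and Cyp3a59, taken by symbol, and no other gene of the table has a symbol that begins with Cyp3a. The RNA sequenced was polyadenylated RNA of whole liver. All mice were C57BL/6J males aged 10 weeks at the start of feeding. Each of 3 groups is represented by 1 library, and the labels do not say how many mice a library holds. The control group received normal chow diet and no treatment. The NASH group, named for non-alcoholic steatohepatitis, was fed a western diet with liquid fructose, labelled 24W, and was not treated. The TH-treated NASH group had the same diet and, after 16 weeks, received thyroid hormone for 8 weeks, T3 at 35 ng/g and T4 at 7 ng/g given in drinking water with 15% fructose. The comparisons address how the diet changes the liver transcriptome and how thyroid hormone changes it on that diet.

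CYP3A enzymes sit in the membrane of the endoplasmic reticulum, take electrons from P450 oxidoreductase and oxidise a wide range of steroids, bile acids and drugs. In hepatocytes their genes are known targets of the xenobiotic receptors PXR (encoded by Nr1i2) and CAR (Nr1i3), on a background of liver factors such as HNF4A, FOXA proteins and ONECUT1. Several mouse members are known to be sex-biased: Cyp3a41a, Cyp3a41b and Cyp3a44 are expressed mainly in female liver, where the sexes' different growth hormone rhythms set the pattern, and Cyp3a16 is known mainly from the fetal and newborn liver. Cyp3a11 is the main drug-inducible member of adult mouse liver, Cyp3a25 is a further member of adult liver, and Cyp3a13 is also known from the intestine.

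The gene positions deposited with the values place 8 members side by side on chromosome 5, from 145345279 to 146113285, a span of 768 kb that holds no other gene of the table. Their order is Cyp3a57, Cyp3a16, Cyp3a41b, Cyp3a41a, Cyp3a44, Cyp3a11, Cyp3a25 and Cyp3a59. Cyp3a57 and Cyp3a59, at the outer ends, lie on the plus strand and the 6 between them on the minus strand. Cyp3a13 (ENSMUSG00000029727) lies apart on the same chromosome, at 137892932 to 137921619, 7.42 Mb before the cluster. The sources used here do not name the table's genome build. All 9 members overlap the gene of the same symbol in a GRCm38 annotation, GENCODE M21, and 5 of the 9 have the same start and end. All 9 are protein coding, with 13 exons and a coding sequence of 1512 to 1515 bases.

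The coding sequences fall into 2 families and a lone member. Cyp3a11, Cyp3a16, Cyp3a41a, Cyp3a41b and Cyp3a44 share 92.4% to 99.9% of their coding bases, and Cyp3a25, Cyp3a57 and Cyp3a59 share 93.9% to 97.5%. Cyp3a13 matches every other member at 74.7% to 76.5%. The promoters, taken as the 250 bases before the RefSeq start, divide the first family further. Cyp3a16, Cyp3a41a, Cyp3a41b and Cyp3a44 are alike at 93.9% to 99.6% there, and Cyp3a11 matches these 4 at 74.8% to 77.1%. The promoters of Cyp3a41a and Cyp3a41b differ at 1 of 250 bases.

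**Figure D1:**
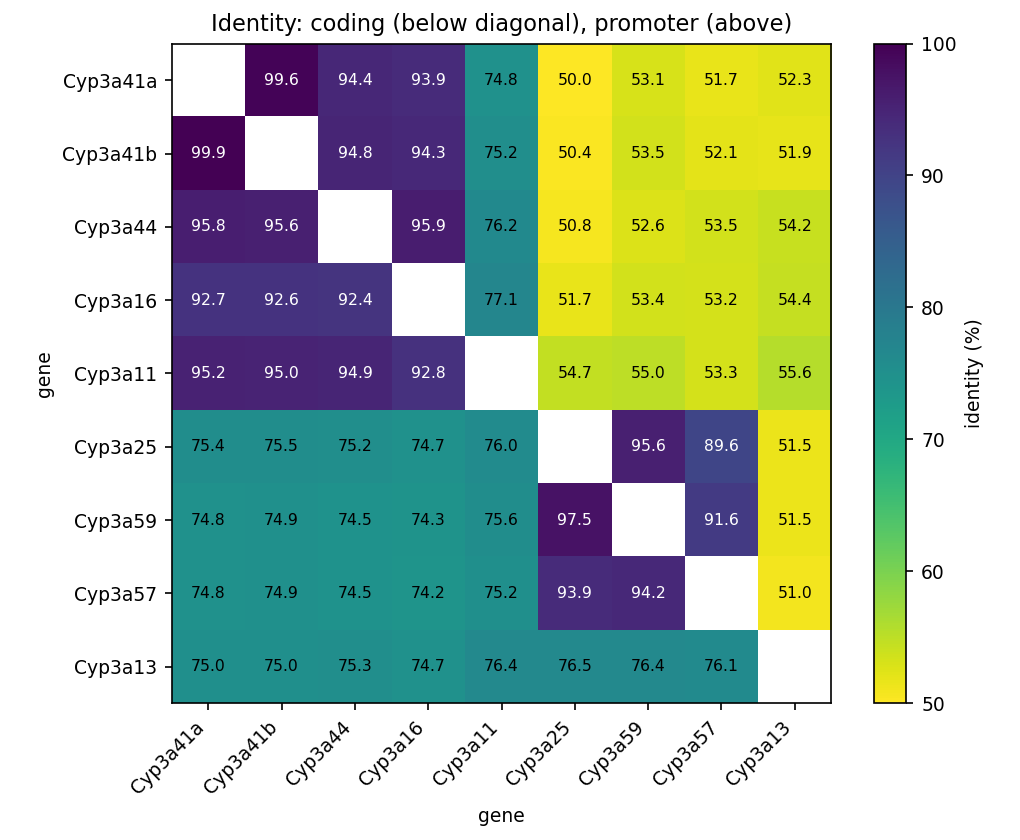
Percent identity between each pair of the 9 members, coding sequence below the diagonal and the 250 bases before the RefSeq start above it, with both axes listing the genes. Cyp3a11 sits with Cyp3a16, Cyp3a41a, Cyp3a41b and Cyp3a44 by coding sequence (92.8% to 95.2%) but at 74.8% to 77.1% by promoter.

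Promoters are shown because the 4 members with near-identical promoters were the ones read almost only after thyroid hormone, while Cyp3a11 was lower there. The sequences are from RefSeq, build GRCm38.p6, each written from 5′ to 3′ on the strand of its gene. First come 30 bases around a hexamer in which Cyp3a11 differs from those 4, with the hexamer in capitals. The hexamer was picked for its known motif and is not the only difference. Cyp3a11 also differs at lower-case bases of these 30, and its whole promoter matches the 4 at 74.8% to 77.1%.
Cyp3a11 (chr5:145879923-145879952, minus strand): gatgcaaaggtgATCCATctactggcttga
Cyp3a16 (chr5:145469781-145469810, minus strand): gatgcaggggtaATCAATctactggctgaa
Cyp3a41a (chr5:145720190-145720219, minus strand): gatgcaggggtaATCAATctactggctgaa
Cyp3a41b (chr5:145584784-145584813, minus strand): gatgcaggggtaATCAATctactggctgaa
Cyp3a44 (chr5:145805928-145805957, minus strand): gatgcaggggtaATCAATctactggctgaa
The 30 bases are the same in Cyp3a16, Cyp3a41a, Cyp3a41b and Cyp3a44 and hold ATCAAT, a core that ONECUT1 is known to bind. In Cyp3a11 the aligned hexamer carries A4C, counted from 1 at the hexamer's 5′ end, with the base of Cyp3a44 first. ATCAAT ends 66 bases before the start in Cyp3a41a, Cyp3a41b and Cyp3a44 and 70 bases before it in Cyp3a16. The Cyp3a11 hexamer ends 81 bases before the RefSeq start, inside the longer gene that the deposited table uses.

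Next come longer stretches of 6 promoters, with 3 kinds of motif in capitals on either strand: the ONECUT1 core ATCAAT, the FOXA core TGTTTAC and the HNF4A core CAAAGT. Cyp3a44 and Cyp3a16 stand for the members at high level after hormone, Cyp3a41a for the copy pair, Cyp3a11 and Cyp3a25 for the abundant members and Cyp3a57 for the member of lowest level. Cyp3a11 is cut to the 140 bases that lie before the start of its gene in the table.
Cyp3a44 (chr5:145805875-145806124, minus strand): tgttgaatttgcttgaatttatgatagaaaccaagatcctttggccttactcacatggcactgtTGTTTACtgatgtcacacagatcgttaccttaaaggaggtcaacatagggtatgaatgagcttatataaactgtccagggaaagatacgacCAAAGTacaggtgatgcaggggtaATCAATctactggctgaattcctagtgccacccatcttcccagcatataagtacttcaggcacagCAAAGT
Cyp3a16 (chr5:145469724-145469973, minus strand): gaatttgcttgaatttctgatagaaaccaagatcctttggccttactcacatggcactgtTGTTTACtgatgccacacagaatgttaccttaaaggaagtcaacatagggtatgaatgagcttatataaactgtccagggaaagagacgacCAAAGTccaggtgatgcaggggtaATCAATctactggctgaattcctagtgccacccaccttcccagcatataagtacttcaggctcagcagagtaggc
Cyp3a41a (chr5:145720137-145720386, minus strand): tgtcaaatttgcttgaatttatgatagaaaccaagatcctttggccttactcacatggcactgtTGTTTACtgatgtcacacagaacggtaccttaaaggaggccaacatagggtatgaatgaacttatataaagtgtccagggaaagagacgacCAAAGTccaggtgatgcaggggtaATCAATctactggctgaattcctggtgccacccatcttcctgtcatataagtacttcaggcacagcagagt
Cyp3a11 (chr5:145879965-145880104, minus strand): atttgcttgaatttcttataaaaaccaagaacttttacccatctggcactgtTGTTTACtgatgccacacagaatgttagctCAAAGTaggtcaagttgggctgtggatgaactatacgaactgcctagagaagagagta
Cyp3a25 (chr5:146009619-146009868, minus strand): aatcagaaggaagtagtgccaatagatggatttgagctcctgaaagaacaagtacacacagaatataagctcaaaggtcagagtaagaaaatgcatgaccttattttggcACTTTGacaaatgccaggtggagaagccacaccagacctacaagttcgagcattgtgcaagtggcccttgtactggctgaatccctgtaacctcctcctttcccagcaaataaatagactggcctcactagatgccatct
Cyp3a57 (chr5:145345019-145345268, plus strand): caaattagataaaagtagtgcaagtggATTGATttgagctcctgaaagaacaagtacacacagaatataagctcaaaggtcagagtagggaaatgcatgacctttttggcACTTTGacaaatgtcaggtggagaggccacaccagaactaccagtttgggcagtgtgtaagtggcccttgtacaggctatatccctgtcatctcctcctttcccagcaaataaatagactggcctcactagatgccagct
All 9 members had a RefSeq promoter window, and 7 motifs were searched on both strands of the 250 bases. ATCAAT was found in Cyp3a16, Cyp3a41a, Cyp3a41b and Cyp3a44, and on the other strand of Cyp3a57, against 6.72% of all 32851 promoter windows of the same length. TGTTTAC was found in Cyp3a11, Cyp3a16, Cyp3a41a, Cyp3a41b and Cyp3a44, against 3.17% of all windows. CAAAGT was found in every member except Cyp3a13, against 12.6%. AGGTCA, a core that nuclear receptors bind, was found in Cyp3a11, Cyp3a25, Cyp3a44, Cyp3a57 and Cyp3a59, against 14.0%, and the related AGTTCA in Cyp3a11, Cyp3a41a and Cyp3a41b, against 11.8%. TATAAA was found in the same 5 members as TGTTTAC, against 12.4%. TTCNNNGAA, the core bound by STAT5, was in none of the 9 windows, against 7.02% of all. No match overlapped a match of another motif. A match describes the letters only.

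Levels are given as FPKM, fragments per kilobase of transcript scaled to the fragments counted on genes, so levels of different members can be compared per length. Multiplying each FPKM by gene length gave whole fragment numbers within 0.01 for 100% of values. Genes held 54576236 fragments in the control library, 47009255 in NASH and 38303410 after hormone. Intervals of folds are exact 95% conditional binomial (Clopper-Pearson) intervals on those fragments. Intervals of single levels, used to order the members, are exact 95% Poisson intervals. Both kinds cover counting error only, and with 1 library per group no spread between mice is known and no test was made. The share of fragments on the 9 members was 0.384% in control, 0.304% in NASH and 0.137% with hormone.

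All 11 hepatocyte markers found were expressed in the 3 libraries. Their sum was 59027, 39749 and 40077 FPKM in control, NASH and TH-treated NASH, and 26343, 19484 and 25170 without Alb, the albumin gene. Alb itself stood at 32685, 20265 and 14907 FPKM. In NASH against control all 11 were lower, none of them by 2-fold, where 0.774% of all genes were lower by 2-fold. In TH-treated NASH against NASH 8 were higher and 3 lower, including Alb, with a median difference of 0.49 in log2(FPKM + 1). Tat and Serpina1a were higher past 2-fold there, where 2.73% of all genes were. The labelled sex was met too, since Ddx3y, a Y-linked gene, read 13.4, 14.5 and 17.3 FPKM, and Xist, the RNA of the inactive X chromosome, read 11, 6 and 5 fragments. Of 8 intestine markers, 4 had no fragment in each library, and Cdx1, Cdx2 and Sis had none in any. Fabp2, of the same list, read 57.9, 220 and 73.5 FPKM, and without it the list summed to 1.32, 1.53 and 1.96 FPKM, most of it Lgr5. None of 6 kidney markers reached 1 FPKM. In the pancreas list Cpa1, Pnlip and Ctrb1 had no fragment, while Cela1 read 17.5, 10.8 and 56.9 FPKM and the other genes summed to at most 1.02. In the fat list Car3 read 2033, 1430 and 213 FPKM and Fabp4 8.11, 34.3 and 30.5, while Adipoq was at most 0.0659. Markers of other liver cell types differed between the libraries. The summed level of 7 macrophage markers was 140, 430 and 635 FPKM in control, NASH and TH-treated NASH, and none was at 0. For 7 bile duct markers the sums were 31.1, 107 and 46.9 FPKM, and 4.09, 10.8 and 2.52 without Spp1, so that after hormone the sum was above control with Spp1 and below it without. The sums were, for 8 stellate cell markers 40.2, 77.9 and 65.7, for 6 endothelial markers 55.8, 65.4 and 73.2, and for 7 blood cell markers 317, 397 and 1767. Alas2 alone of the 7 blood cell markers went the other way, at 60.5, 44.3 and 22.8 FPKM. The part of these cell types in the Cyp3a values was not tested.

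Cyp3a11 (ENSMUSG00000056035, chromosome 5, 145854426 to 145879964) was the most abundant member in every library. Its level was 1252 FPKM in control, 1006 in NASH and 246 after hormone, which placed it at rank 55, 59 and 328 among all genes. Control and NASH were close and the TH-treated library was far lower. Cyp3a11 was 1.24-fold lower in NASH than in control (interval 1.23 to 1.25), 4.08-fold lower in TH-treated NASH than in NASH (4.03 to 4.14) and 5.08-fold lower than in control (5.01 to 5.15). In whole tissue, fewer cells of a type and less RNA per cell cannot be told apart.

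Cyp3a25 (ENSMUSG00000029630, 145977194 to 146009618) was the member at the next level. It read 341, 259 and 149 FPKM in control, NASH and TH-treated NASH. Its order over the libraries was that of Cyp3a11, with a smaller step after hormone. It was 1.32-fold lower in NASH than in control (1.30 to 1.34), 1.73-fold lower in TH-treated NASH than in NASH (1.70 to 1.77) and 2.28-fold lower than in control (2.24 to 2.33). The level of Cyp3a11 was 3.67 times that of Cyp3a25 in control, 3.89 times in NASH and 1.65 times in TH-treated NASH.

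Cyp3a59 (ENSMUSG00000061292, 146079258 to 146113285), the coding sequence closest to Cyp3a25 at 97.5% identity, read 15.4, 12.8 and 9.35 FPKM. It too was highest in control and lowest after hormone. The differences were 1.21-fold lower in NASH than in control (1.12 to 1.30) and 1.37-fold lower in TH-treated NASH than in NASH, and after hormone it was 1.65-fold lower than in control (1.51 to 1.80). Despite promoters that are 95.6% identical, Cyp3a25 stood at 22.1 times the level of Cyp3a59 in control, 20.3 times in NASH and 16.0 times in TH-treated NASH. Cyp3a57 (ENSMUSG00000070419, 145345279 to 145390512), the other gene of that family, had 0 fragments in the control library, 6 in NASH and 13 after hormone. These are 0, 0.0812 and 0.216 FPKM, under 1 FPKM in every library, with the TH-treated and NASH levels in a ratio of 2.66 (0.943 to 8.53). Its promoter is 89.6% identical to that of Cyp3a25.

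Cyp3a13, the member outside the cluster, had the smallest range over the 3 libraries among the 4 members present in all. In NASH against control alone its difference was the largest of the 4. It read 66.4, 48.2 and 57.5 FPKM in control, NASH and TH-treated NASH. It was 1.38-fold lower in NASH than in control (1.34 to 1.42) and 1.19-fold higher in TH-treated NASH than in NASH (1.15 to 1.23). After hormone it was 1.16-fold lower than in control (1.12 to 1.19). Among the 4, Cyp3a13 alone was higher in TH-treated NASH than in NASH. A pseudogene fragment, Gm15502, lies inside it on the same strand, over 208 bases, and read 11.3, 5.83 and 6.78 FPKM.

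The remaining 4 members were at or near 0 without hormone. Cyp3a44 (ENSMUSG00000054417, 145773983 to 145805874) had 0 fragments in both libraries without hormone and 7320 with it, a level of 97.4 FPKM and rank 727 of all genes. Taking 3 fragments per library as the limit that a count of 0 allows, it was at least 2995-fold higher in TH-treated NASH than in NASH and at least 3477-fold higher than in control.

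Cyp3a16 (ENSMUSG00000038656, 145436309 to 145469723) had 0, 1 and 3439 fragments, the last being 51.9 FPKM. The ratio of TH-treated NASH to NASH was 4221 (757 to 166754), resting on 1 NASH fragment, and the TH-treated level was at least 1633-fold higher than control. The hormone-treated library was thus the only one of the 3 with more than 1 fragment of either gene.

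Cyp3a41a (ENSMUSG00000075551, 145694060 to 145720136) and Cyp3a41b (ENSMUSG00000075552, 145558675 to 145584730) are near-identical copies, at 99.9% of coding bases. Both had 0 fragments in control and NASH, and 616 and 159 in TH-treated NASH, which are 7.85 and 2.02 FPKM. Against NASH these levels were at least 252-fold and at least 65.0-fold higher, and against control at least 293-fold and at least 75.5-fold higher. Only 9.18% of the 100-base stretches of Cyp3a41a transcripts, and 11.8% of those of Cyp3a41b, occur in no other gene's transcript. The sources used here do not say how reads that match several copies were counted, so the split between the copies is uncertain. The pair is also given as a sum, 9.87 FPKM. That sum is uncertain too, and would be too low if such reads were left out. For the other members 94.0% to 100% of 100-base stretches occur in no other gene, including 94.6% for Cyp3a44 and 99.9% for Cyp3a16. With 50-base stretches the range is 72.0% to 100%, including 72.0% for Cyp3a59, 73.2% for Cyp3a25, 73.5% for Cyp3a44, 85.2% for Cyp3a11 and 89.3% for Cyp3a16, so shorter reads would be shared between more members than the Cyp3a41 pair. The sources used here give no read length.

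**Figure D2:**
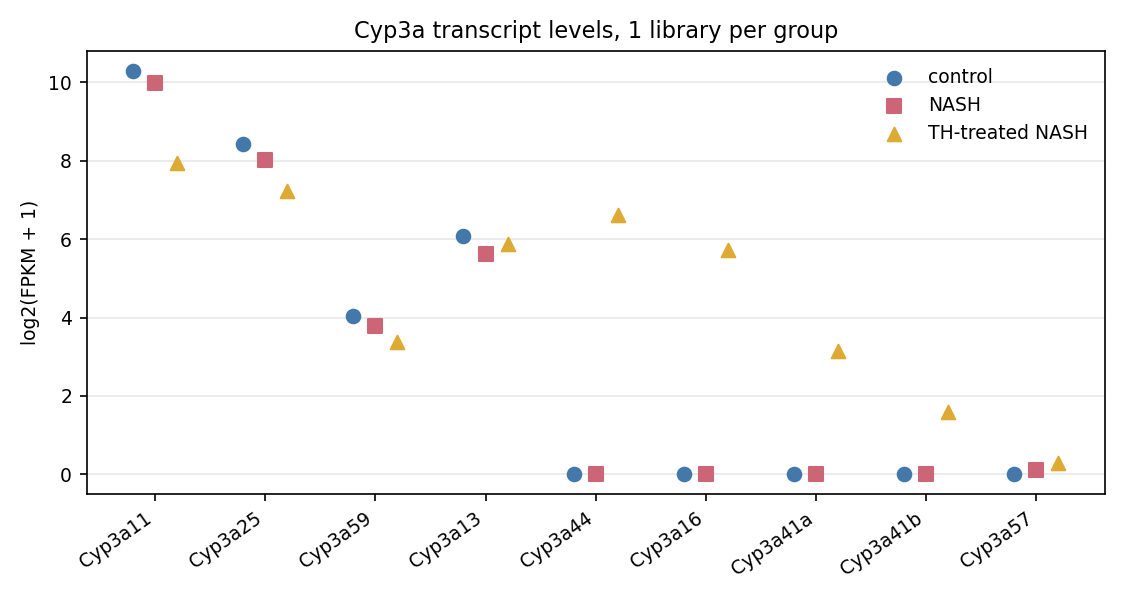
Level of each Cyp3a gene as log2(FPKM + 1), with 1 point per library: circles control, squares NASH, triangles TH-treated NASH. Cyp3a11, Cyp3a25 and Cyp3a59 are lowest after hormone, and Cyp3a44, Cyp3a16, Cyp3a41a and Cyp3a41b have triangles at 97.4, 51.9, 7.85 and 2.02 FPKM over control and NASH values at or next to 0.

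The order of levels changed with the libraries. In control and NASH it was Cyp3a11, Cyp3a25, Cyp3a13, Cyp3a59, and no counting intervals of neighbours among these overlapped. The 5 members below them, at 0 to 6 fragments, could not be ordered within counting error. In TH-treated NASH the order was Cyp3a11, Cyp3a25, Cyp3a44, Cyp3a13, Cyp3a16, Cyp3a59, Cyp3a41a, Cyp3a41b, Cyp3a57, and no neighbours' intervals overlapped. The intervals do not cover the counting of shared reads, so the places of Cyp3a41a and Cyp3a41b are uncertain. The level of Cyp3a11 was there 2.53 times that of Cyp3a44.

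A difference was called at 2-fold or more on the log2(FPKM + 1) scale, which understates changes of low genes. In NASH against control, 4 of the 9 members reached 1 FPKM and 0 of these were called in either direction, where 3.33% of the 11499 genes reaching 1 FPKM in one of the libraries were called higher and 0.774% lower. The other 5, at 0 to 6 fragments, could not be called there. In TH-treated NASH against NASH, 4 members were called higher (Cyp3a16, Cyp3a41a, Cyp3a41b and Cyp3a44) where 2.73% of 11734 genes were, and 1 was called lower (Cyp3a11) where 2.77% were. In TH-treated NASH against control, the same 4 were called higher where 5.57% of 11474 genes were, and Cyp3a11 and Cyp3a25 were called lower where 2.42% were. Of the 8 members that reached 1 FPKM in the comparisons with the hormone library, those 4 reached it only in that library. Cyp3a57 did not reach it. Differences of the 4 members present throughout, on the log2(FPKM + 1) scale, were −0.31 for Cyp3a11, −0.40 for Cyp3a25, −0.25 for Cyp3a59 and −0.46 for Cyp3a13 in NASH against control, beside a median of 0.12 over all genes. In TH-treated NASH against NASH they were −2.03, −0.79, −0.41 and 0.25, beside a median of −0.03.

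The median of all genes in NASH against control moved from 0.12 to −0.06 under median-of-ratios scaling. That scaling also changed the share of higher calls among all called genes from 81.1% to 65.6% there, and trimmed-mean scaling changed it to 65.5%. For TH-treated NASH against control the shares were 69.7% as deposited, 55.2% by median of ratios and 53.9% by trimmed mean. No member changed direction under these scalings, though a difference from a library at 0 could not. No member was called in NASH against control under them.

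**Figure D3:**
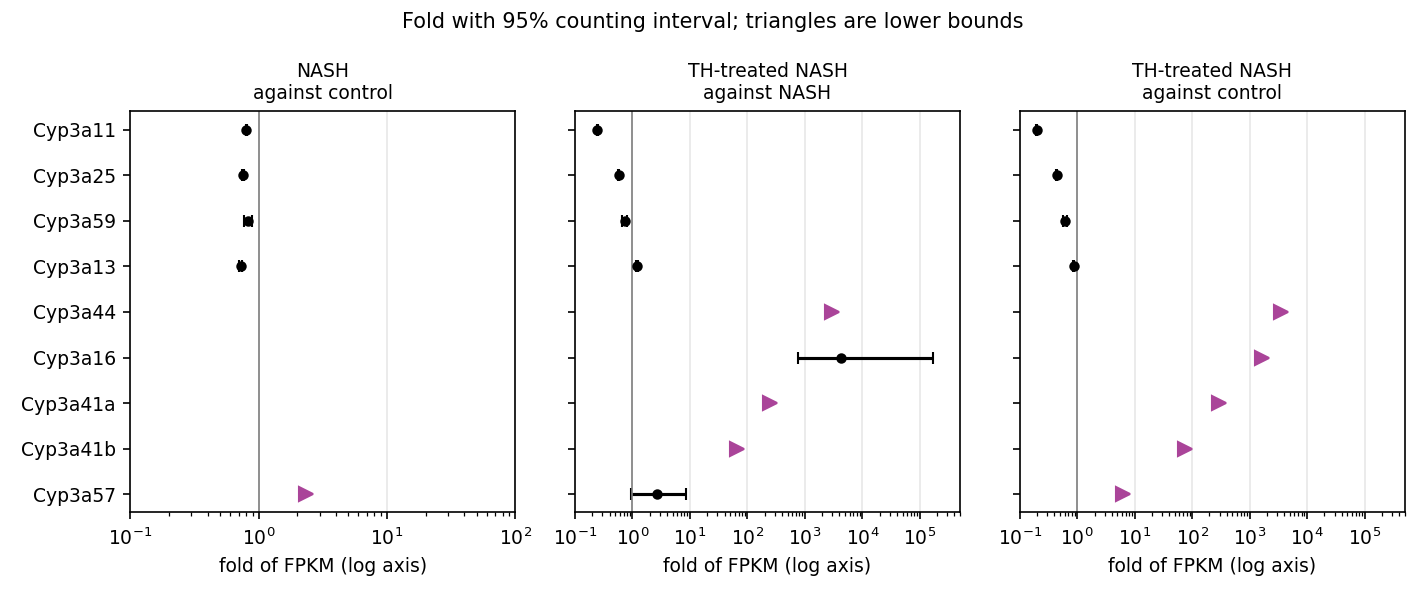
Fold of FPKM between libraries for each Cyp3a gene on a log axis, in 1 panel per comparison; points carry 95% counting intervals and triangles are lower bounds set by 3 fragments. In TH-treated NASH against NASH, Cyp3a11 is 4.08-fold lower and Cyp3a44 at least 2995-fold higher. Cyp3a16 lies at 4221-fold higher (757 to 166754), resting on 1 NASH fragment. The 4 members present in all libraries are below 1 in NASH against control.

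Added together, the 9 members gave 1675 FPKM in the control library, 1326 in NASH and 622 after hormone. The sum was 1.26-fold lower in NASH than in control, 2.13-fold lower in TH-treated NASH than in NASH and 2.69-fold lower than in control. Counted as fragments relative to library totals, without regard to gene length, the sum was 1.26-fold (1.25 to 1.27), 2.23-fold (2.21 to 2.25) and 2.81-fold (2.79 to 2.84) lower, in the same order. Against NASH, the direction of the sum after hormone rested on Cyp3a11. Without it the other 8 members summed to 423, 320 and 376 FPKM, 1.17-fold higher in TH-treated NASH than in NASH and still lower than in control.

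The make-up of the sum differed too. Cyp3a16, Cyp3a41a, Cyp3a41b and Cyp3a44 together were 0 FPKM in the control library, 0.0123 in NASH and 159 after hormone, where they made up 25.6% of the sum. The part of Cyp3a41a and Cyp3a41b in this depends on how shared reads were counted. The 4 members present in all libraries summed to 1675, 1326 and 462 FPKM, 2.87-fold lower in TH-treated NASH than in NASH. The coding family of Cyp3a11 and those 4 genes held 74.8%, 75.9% and 65.2% of the sum, with higher levels of the 4 and a lower level of Cyp3a11 after hormone. The family of Cyp3a25, Cyp3a57 and Cyp3a59 held 21.3%, 20.5% and 25.5%.

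**Figure D4:**
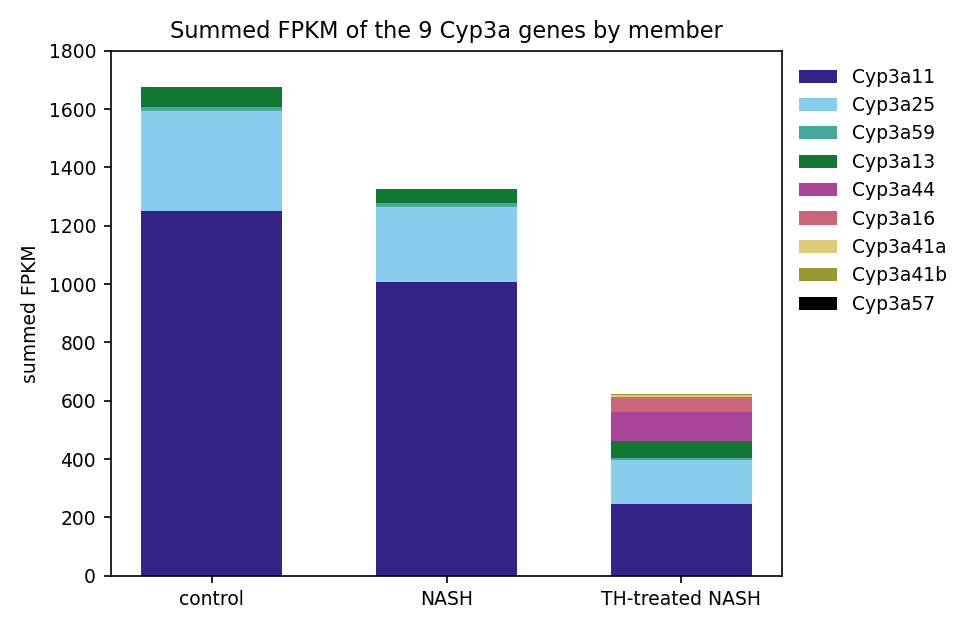
Summed FPKM of the 9 Cyp3a genes in each library, stacked by gene. The bars reach 1675, 1326 and 622 FPKM, and 25.6% of the last comes from Cyp3a44, Cyp3a16, Cyp3a41a and Cyp3a41b.

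The direction of the difference after hormone turned once along the minus-strand genes. Cyp3a44 and Cyp3a11 are the neighbours at that point, the first at least 2995-fold higher and the second 4.08-fold lower in TH-treated NASH than in NASH. The 4 hormone-only members are contiguous, between Cyp3a57 and Cyp3a11, and Cyp3a11, Cyp3a25 and Cyp3a59, on the other side, were all lower. The nearest genes outside the cluster with at least 1 FPKM in any library, chosen after their values were seen, were Zkscan5, Zfp655 and Zscan25 before it and Rnf6 and Cdk8 after it. None of these 5 was called in any comparison, from which nothing is read at a background of 4.1% to 7.99%.

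**Figure D5:**
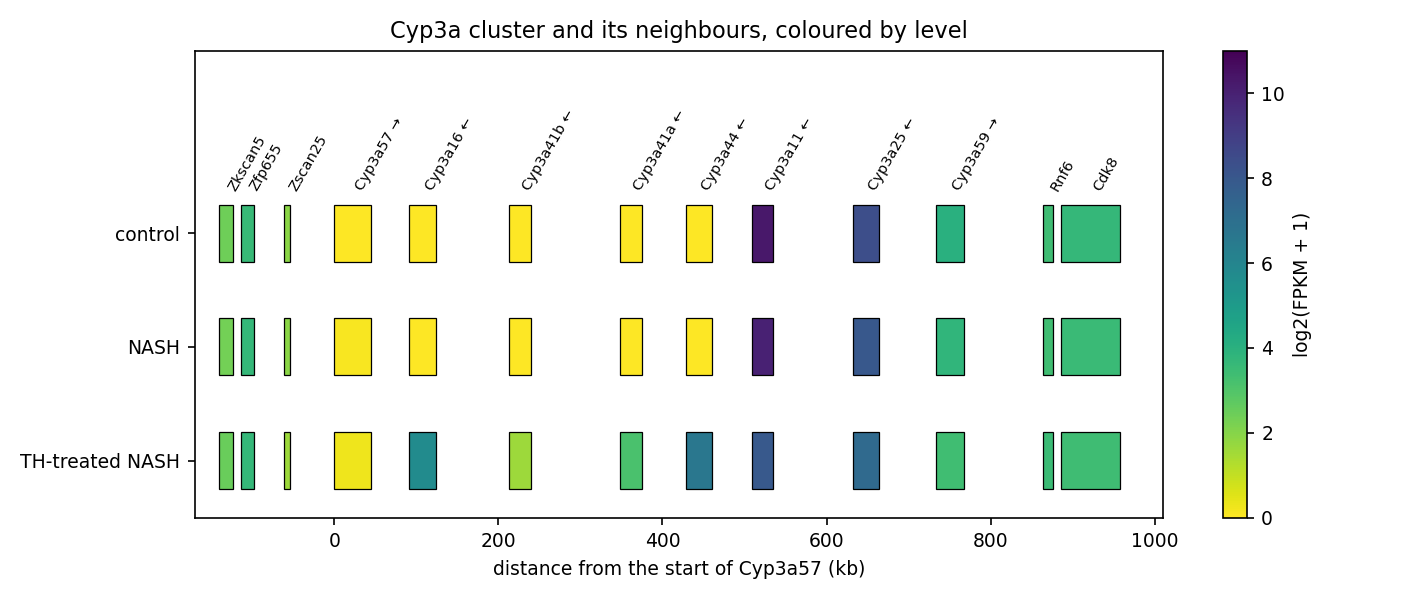
Map of the Cyp3a cluster and flanking genes, with position in kb from the start of Cyp3a57 on the x axis, 1 row per library and box colour for log2(FPKM + 1); arrows give the strand of the Cyp3a genes. The boxes from Cyp3a16 to Cyp3a44 leave the lowest colour only in the TH-treated NASH row, next to Cyp3a11, which reads 1006 FPKM in NASH and 246 in that row.

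Of 18 genes known to act on Cyp3a transcription 17 reached 1 FPKM in any library, and none was called in NASH against control or in TH-treated NASH against NASH, where their medians were −0.08 and −0.27 on the log2(FPKM + 1) scale. With 4.1% and 5.5% of all genes called in either direction, a count of 0 among 17 is near that background. Nr1i2, the gene of PXR, read 35.2, 33.6 and 38.8 FPKM in control, NASH and TH-treated NASH. Nr1i3, the gene of CAR, read 99.1, 85.8 and 66.7 FPKM, and Hnf4a 134, 92.6 and 114. Onecut1, whose product binds the hexamer printed above, read 2.99, 2.42 and 1.003 FPKM, lowest in the library where the 4 members carrying ATCAAT near the start were high. Its TH-treated level was 2.42-fold lower than in NASH (2.01 to 2.93), short of the call on the log2(FPKM + 1) scale at −0.77, and its part in the Cyp3a values was not tested. Cebpb, the gene of an inflammation-linked transcription factor, was the only one of the 17 called in TH-treated NASH against control, at 132, 145 and 273 FPKM. In that comparison 7.99% of all genes were called.

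Other genes known to respond to PXR or CAR were mostly lower after hormone, like Cyp3a11. Of 18 listed, 17 reached 1 FPKM. In TH-treated NASH against NASH 11 were called lower and 1 higher, where 2.77% and 2.73% of all genes were. The median was −1.17 beside −0.03 for all genes. Gsta1, a glutathione transferase gene, read 4.15, 17.1 and 0.328 FPKM in control, NASH and TH-treated NASH. Abcc3, the gene of a basolateral exporter of conjugates, read 36.2, 58.9 and 4.38. Papss2, the gene of an enzyme that makes the sulfate donor, was the one called higher, at 41.7, 44.7 and 107 FPKM. In NASH against control the list had 2 genes called higher and 1 lower, where 3.33% and 0.774% of all genes were.

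Among 6 partners that carry electrons to P450 enzymes or bind them, Por, the oxidoreductase gene, read 171, 150 and 239 FPKM, 1.60-fold higher in TH-treated NASH than in NASH, against the direction of the Cyp3a sum. Cyb5a, the gene of cytochrome b5, read 567, 636 and 369 FPKM. None of the 6 was called in any comparison, from which nothing is read at a background of 4.1% to 7.99%.

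Sex-biased liver genes outside the Cyp3a family were compared because several members are known as female-biased. Of 20 female-biased genes 15 reached 1 FPKM in any library. In TH-treated NASH against NASH 10 were called higher and 1 lower, where 2.73% and 2.77% of all genes were. Of the 10, 5 reached 1 FPKM only after hormone and so had to be higher there. The median over all 20 was 0.88. Cyp17a1, a steroid hydroxylase gene, read 4.57, 14.5 and 207 FPKM, and the lower one was Cd36, a fatty acid transporter gene, at 12.05, 54.01 and 21.6. In NASH against control the same list had 4 higher and 1 lower, where 3.33% and 0.774% of all genes were. Of the 4, Cyp2a4 and Cyp2b9 read 0.0640 and 0.0195 FPKM in control. At such levels they could not have been called lower. Of 20 male-biased genes, 8 were called lower and 4 higher in TH-treated NASH against NASH, beside 2.77% and 2.73% of all genes. In NASH against control 8 were called lower and none higher, beside 0.774% and 3.33%. Hsd17b6, a male-biased steroid dehydrogenase gene, read 41.99, 66.5 and 0.825 FPKM, and Serpina1e, of the same list, read 6572, 431 and 2635. In NASH and control Cyp3a16, Cyp3a41a, Cyp3a41b and Cyp3a44 had 0 or 1 fragments each.

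Acute phase genes, which hepatocytes express in inflammation, were mostly higher in the library where Cyp3a11 was lowest. All 17 listed reached 1 FPKM. In TH-treated NASH against NASH 10 were called higher and none lower, where 2.73% and 2.77% of all genes were, with a median of 1.28. Saa2, the gene of a serum amyloid A protein, read 1176, 263 and 4817 FPKM in control, NASH and TH-treated NASH, and Orm2, of an orosomucoid, 33.6, 52.2 and 682. In NASH against control 2 were called higher and 3 lower, beside 3.33% and 0.774% of all genes, and Cyp3a11 was 1.24-fold lower there. Their part in the Cyp3a values was not tested.

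Genes with the pattern most like 3 of the members were found among 6765 genes outside the Cyp3a family with at least 5 FPKM in any library, by distance over the differences NASH minus control and TH-treated NASH minus NASH in log2(FPKM + 1), over 3 libraries. Nearest to Cyp3a11 were Gsta4, Ugdh, Aox1, Cyp2d9 and Sucnr1, at distances of 0.22 to 0.28. Nearest to Cyp3a13 were Tk1, Fam98c, Rbm3, Znrf1 and Agt, at 0.01 to 0.04. Nearest to Cyp3a44 were Mup9, Mup13 and Mup18, major urinary protein genes, at 0.25, 0.36 and 0.63, followed by Crybb3 and Prtn3 at 2.11 and 2.14. Mup9 read 11.6, 9.59 and 1009 FPKM in control, NASH and TH-treated NASH, so unlike Cyp3a44 it was present without hormone. The 1 FPKM added before the logarithm shrinks the fold of Cyp3a44 more than that of Mup9. From Mup13 on, the distances to Cyp3a44 were larger than any given here for Cyp3a11 or Cyp3a13.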

How the data were processed

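The deposited table gives one FPKM value per gene and library, with gene length, position and identifier. Per the submitters' processing notes, the authors used TopHat2 and HTSeq. The sources used here name no version, genome build, strand setting or rule for reads that match several genes. The deposited FPKM values times length and library total came out as whole fragments, which gave depths and counting intervals. The table's total per library is 54576236, 47009255 and 38303410 fragments.

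Folds are ratios of FPKM; where a library had 0 fragments, 3 fragments per library set a lower bound. Calls used log2(FPKM + 1), a 2-fold threshold and at least 1 FPKM in either library. No test was made, since each of 3 groups has 1 library. Identities came from global alignments of annotated coding sequences and RefSeq promoters (Biopython 1.88). Steps were tested on simulated data with known folds. Python 3.11.15, numpy 2.4.6, pandas 2.3.3 and scipy 1.17.1 were used. Alternatives changed the pseudocount, filter, threshold, scaling and treatment of copies.

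The 9 members and the 19 context lists (194 entries, 192 found in the table) were chosen with earlier results of these data known. Named genes were the members, the 5 genes nearest in pattern to Cyp3a11, Cyp3a13 and Cyp3a44, at most 2 highest and 2 lowest genes per list and comparison, and a few fixed genes. The genes flanking the cluster, the pseudogene inside Cyp3a13 and some markers of other organs and cell types were named after their values were seen.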

Additional observations from a re-analysis of the deposited data

How the results depend on the processing

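With 1 library per group, no replicate could be left out. No paired analysis was possible because each group has 1 library. No member changed direction under any alternative. A change of pseudocount cannot turn a direction, and a scaling cannot turn a difference from a library at 0. In NASH against control Cyp3a41a, Cyp3a41b and Cyp3a44, at 0 in both libraries, have no direction. The counts of called members stayed within 1.5 times. The sizes were less stable. Of 135 alternative values of member differences, 91 stayed within counting error and 44 moved outside it. Counting error was taken here from the Poisson limits of both libraries' levels, not from the fold intervals. The 91 include Cyp3a41a, Cyp3a41b and Cyp3a44 in NASH against control, which were bound to stay at 0. In NASH against control, median-of-ratios scaling took Cyp3a11 from −0.31 to −0.53 and Cyp3a25 from −0.40 to −0.61 in log2(FPKM + 1). It took Cyp3a59 from −0.25 to −0.46 and Cyp3a13 from −0.46 to −0.67. The summed Cyp3a ratio was 0.792 in NASH against control, 0.469 in TH-treated NASH against NASH and 0.371 in TH-treated NASH against control. By median of ratios these were 0.681, 0.482 and 0.328, and by trimmed mean 0.681, 0.478 and 0.325. Rescaled without the 50 most abundant genes they were 0.775, 0.455 and 0.353. From fragments the hormone ratios were 0.449 and 0.355. Without Cyp3a11 the ratios were 0.757, 1.17 and 0.888, the second being reversed. Genes called among all genes were 472, 645 and 917 in that order. They were 1025, 1149 and 1599 with a pseudocount of 0.1 FPKM, and 155, 317 and 352 with 5 FPKM. At 1.5-fold they were 1504, 2056 and 2618, and at 4-fold 47, 129 and 148. With a filter of 5 FPKM, 307 were called in NASH against control. These counts move by the construction of the threshold, filter or pseudocount. The planned merging of copies by protein identity was not run, and copies with at least 97% coding identity were summed instead, an alternative chosen after seeing the data, which left 3 units higher and 1 lower in TH-treated NASH against NASH. Depth limits Cyp3a57, Cyp3a16 in NASH and every 0, and nothing here measures the spread between mice.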

Other observations

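In the growth hormone axis, which sets sex-biased liver expression, 10 genes were listed, and their calls are given by comparison. In NASH against control, where 4.1% of all genes were called, Igfbp3 was called higher (log2 difference 1.28) and Cish lower (−1.04). Stat5a was called higher in TH-treated NASH against control (1.08), where 7.99% were called. In TH-treated NASH against NASH, where 5.5% were called, 1 was called higher. It was Igf1, the gene of the growth factor that growth hormone induces, at 71.3, 56.9 and 117 FPKM in control, NASH and TH-treated NASH. In both hormone comparisons 1 call among 10 genes is near the share of all genes, and nothing is read from it. Ghr, the growth hormone receptor gene, read 127, 131 and 75.8 FPKM. Stat5b, the gene of the signal transducer behind male-biased expression, read 10.6, 11.6 and 14.6 FPKM.

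Fetal liver genes gave little to set beside Cyp3a16. Of 6 listed, 3 reached 1 FPKM in any library. None was called lower, but a lower call needs at least 1 FPKM in the library compared against. In control only Peg3, at 1.54 FPKM, had that, and in NASH only H19, at 1.76, and Peg3, at 1.07. Nothing is read from the lack of lower calls. H19 was called higher in NASH and in TH-treated NASH against control, and Peg3 in TH-treated NASH against NASH. Of all genes 3.33%, 5.57% and 2.73% were called higher in these comparisons, in that order.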
